A study of Mus musculus with 9 samples.

Results

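The genes described here are the ligands and receptors of axon guidance: semaphorins with their plexin and neuropilin receptors, ephrins with their Eph receptors, netrins with UNC5 receptors, and Slits with Robo receptors. They were taken by symbol from the table of counts per gene, which gave 71 of its 55491 rows: 68 genes (35 for ligands, 33 for receptors) and 3 antisense rows named after Plxna4. Enough counts for a test were present for 51 of them. All 9 libraries were used.

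Guidance ligands are secreted or membrane-bound proteins that attract or repel a moving cell process by changing its actin cytoskeleton and adhesion. Secreted class 3 semaphorins mostly act through a neuropilin, which binds the ligand, and a plexin, which signals. Ephrins sit on the membrane and meet Eph receptor kinases on a neighbouring cell. The families were named in the nervous system but are also used by epithelia and vessels. In the mouse embryo Slit2 and Robo2 limit where the ureteric bud of the kidney forms.

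The cells were PT-22, a mouse line that the labels call proximal tubule, the kidney segment that takes back most filtered solutes. Every group shared the genotype Pax2-/-, Pax8fl/fl, Rosa-CreERT2 (a tamoxifen-activated Cre recombinase at the broadly active Rosa locus) and the label Pax8-pTRIPZ, pTRIPZ being a doxycycline-inducible lentiviral vector, and all grew with 3% fetal bovine serum. The 3 groups of 3 libraries (replicates A, B and C) were day 0 without drug, day 6 with 4-hydroxytamoxifen at 1 uM, and day 12 with 4-hydroxytamoxifen at 1 uM and then doxycycline at 1 ug/ml, given at intervals of 2 days. The labels give 2 days of 4-hydroxytamoxifen in one field and 6 days of PAX8 depletion in another. They do not say whether the line is 1 clone or whether replicates were separate cultures. P-values therefore measure the spread between libraries, which may be technical. No vehicle-treated library and no untreated library later than day 0 was analysed here, so day, drug and PAX8 cannot be told apart.

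Libraries held 56398623 to 86767334 counts, and a single count equalled 0.0119 to 0.0172 CPM (counts scaled to library size with TMM factors). Pax8 counts at day 6 went against the depletion in the labels, at 399 to 411 CPM, above the 289 to 292 CPM of day 0. At day 12, labelled with doxycycline, they stood at 487 to 503 CPM. Counts over the whole gene cannot separate a floxed, a deleted and a vector-borne copy. Groups are therefore called by the day and drug of their labels, and no direction below is a response to a measured loss of Pax8. Pax2 was counted despite the Pax2-/- label. It had 30.4 to 34.6 CPM at day 0, 43.3 to 49.6 CPM at day 6 and 48.6 to 54.5 CPM at day 12. Counts do not show whether that transcript is intact. Mitochondrially encoded genes took 6.66% to 7.18% of counts at days 0 and 6 and 2.43%, 3.96% and 2.10% in day 12 libraries A, B and C, so that library B stood apart within its group. Its part in the results was not tested. Without it 34 members were called for day 12 against day 6 (38 with it). For day 12 against day 0, 38 were called without it (41 with it). Leaving out day 12 library A instead gave 33 and 39, and leaving out day 12 library C gave 34 and 39. Of 15 proximal tubule markers, 7 averaged at least 1 TPM (a scale that also divides by transcript length) and the transporter genes Slc22a6 and Slc34a1 had 0 counts in all 9 libraries, so the label holds only in part. Their summed level was 139 to 154 TPM at day 0, 221 to 234 TPM at day 6 and 247 to 283 TPM at day 12, and that of 8 epithelial markers 527 to 537, 117 to 120 and 298 to 316 TPM. The epithelial sum came mostly from Cdh16 (468, 71.1 and 232 TPM at days 0, 6 and 12). Of 6 tested epithelial markers 2 were higher and 4 lower at day 6. The rise of the proximal tubule sum came mostly from Aqp1, a water channel (184 TPM at day 6, 65.2 TPM at day 0). Of the 8 tested markers of that list 3 were higher and 5 lower at day 6, among them Lrp2 (6.68-fold lower), Ggt1 (5.23-fold) and Slc6a19 (4.17-fold). Neuronal defining markers Map2, Snap25 and Stmn2 and the endothelial Tie1 were at 0 counts in every library. Of 5 tested neuronal and glial markers 2 were higher at day 6, Syt1 7.97-fold and Mbp 2.09-fold, and 2 were lower, among them Tubb3 (2.28-fold). Of all tested genes 33.5% were higher and 31.4% lower at day 6. Of 5 tested endothelial markers 3 were higher, Tek 5.01-fold, Flt1 4.52-fold and Plvap 1.903-fold, and Egfl7 was lower. The 12 neuronal and glial markers summed to 8.12 to 9.04 TPM at day 0, 9.13 to 9.43 TPM at day 6 and 11.7 to 12.0 TPM at day 12, the 10 endothelial markers to 13.4 to 15.3, 13.1 to 15.7 and 17.5 to 18.7 TPM, and the 8 stromal markers to 6.36 to 6.93, 5.06 to 5.43 and 9.41 to 10.5 TPM. The stromal sum hides opposed changes: of 5 tested markers 3 were higher and 1 lower at day 6 (median absolute log2 fold change 3.46). Podocyte markers, 8 in all, summed to 134 to 144 TPM at day 0, 89.1 to 93.7 TPM at day 6 and 135 to 148 TPM at day 12, mostly from Synpo and Podxl, and 8 immune markers to 32.4 to 36.5, 27.1 to 31.0 and 31.4 to 34.5 TPM, with Cd3e at 0. Of 4 tested immune markers 1 was higher and 2 lower at day 6 (median absolute log2 fold change 2.37). The part of these shifts in the results was not tested.

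Transcripts of every ligand and receptor family were detected in PT-22 cells, but at day 0 Slits summed to only 1.37 TPM and Robos to 0.89 TPM. On the TPM scale the order at day 0 was led by the plexin Plxnb2 at 265 ± 2.3 TPM (SD, n = 3 here and below), the netrin Ntn1 at 88.4 ± 2.2 TPM, the semaphorin Sema3c at 83.6 ± 3.1 TPM and the Eph receptor Epha2 at 56.2 ± 1.8 TPM. The libraries of Ntn1 and Sema3c overlapped, whereas the step down to Epha2 exceeded the spread. Sema4d (40.7 ± 3.2 TPM), Efnb2 (39.2 ± 0.64 TPM) and Efna1 (37.2 ± 1.3 TPM) followed, each overlapping its neighbour, with the EphB receptor Ephb4 below them at 28.2 ± 0.32 TPM. At least 1 TPM was reached by 37, 38 and 42 of the 51 tested members at days 0, 6 and 12, and at least 10 TPM by 21, 26 and 28. The 51 are those that passed a filter on low counts, so a member high in only 1 group could enter through it, and counts over them are a description.

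The other 20 rows were not tested. No count was found in any library for Epha3, Epha5, Epha6, Ephb1, Robo4, Sema6d, Unc5a, Unc5c and the 3 antisense rows, which allows each up to 0.0358 to 0.0516 CPM per library (3 counts; counting error only). Epha4, Epha8, Epha10, Ephb6, Plxna4, Slit3 and Unc5d had 1 to 11 counts over all libraries, Ntn5 had 28 and Robo3 had 52. Among UNC5 receptors, then, Unc5b alone was tested, and Slit2 and Robo2 held most of the Slit and Robo transcripts.

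**Figure D1:**
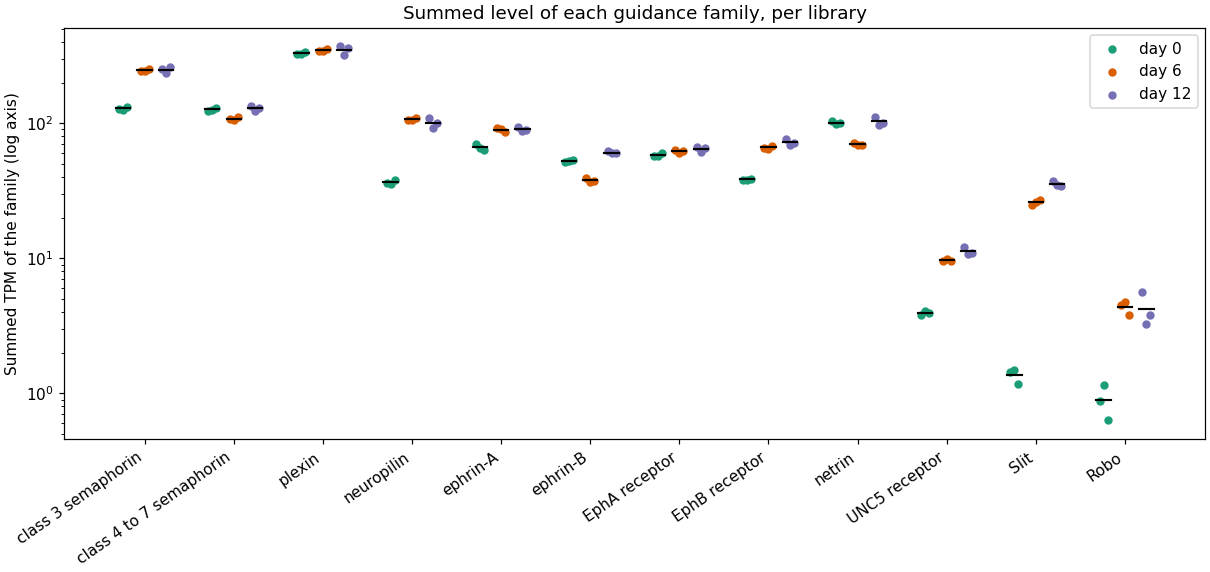
Summed TPM of each guidance family in each library (log axis), with points for libraries, short lines for the mean of 3 libraries and colours for day 0, day 6 and day 12. Slits summed to 1.37 ± 0.17, 26.1 ± 1.1 and 35.4 ± 1.6 TPM at days 0, 6 and 12, neuropilins to 36.5 ± 1.2, 107 ± 1.5 and 101 ± 9.2 TPM, and plexins, the highest family, to 329.8 ± 5.1, 348 ± 6.9 and 350.1 ± 27 TPM.

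Day 6 libraries were first set against untreated day 0, which asks which guidance genes differed after 4-hydroxytamoxifen, the drug meant to delete Pax8. Slit2, Sema3d, Nrp2 and Robo2 rose more than 5-fold, and Sema5a and Ephb2 fell more than 5-fold. In all, 29 members were higher and 14 lower at an adjusted p under 0.05 (edgeR's quasi-likelihood test, Benjamini-Hochberg over 16353 genes), and 8 were not called. Of the tested members 84.3% were called, against 64.9% of all tested genes, of which 33.5% were higher and 31.4% lower. The median log2 fold change was 0.34 over members and 0.02 over all genes. A change of at least 2-fold was called higher for 12 members and lower for 5, where 9.66% and 4.65% of all genes were. In 46 members the libraries of the groups did not overlap, as in 68.9% of all genes. By role, 17 of 32 tested ligands were higher and 9 lower, and 12 of 19 receptors were higher and 5 lower. In bulk RNA, fewer cells of a kind and less RNA per cell cannot be told apart.

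Class 3 semaphorins, the secreted ligands, were higher for 5 of 7 members and lower for none, where 33.5% of all tested genes were higher and 31.4% lower. Sema3d (ENSMUSG00000040254, GRCm38 chr5:12383385-12588948, plus strand), a ligand that steers axons and vessels, had 1.18, 1.36 and 1.14 CPM at day 0, 54.01, 55.4 and 55.7 CPM at day 6 and 81.2, 81.5 and 80.6 CPM at day 12. It was detected in the untreated cells, at 79 to 99 counts a library, and every later library lay far above them (45.03-fold, log2 fold change 5.49 ± 0.053 (SE), adjusted p = 1.34e-18, for day 6 against day 0). Sema3a (ENSMUSG00000028883, GRCm38 chr5:13125414-13602565, plus strand), the growth cone collapse factor that binds Nrp1, had 8.59, 8.66 and 9.97 CPM at day 0, 23.4, 24.6 and 24.7 CPM at day 6 and 20.5, 21.2 and 21.2 CPM at day 12. No day 6 library overlapped day 0 (2.67-fold, log2 fold change 1.42 ± 0.057 (SE), adjusted p = 6.45e-12). Sema3c, which binds both neuropilins and was the highest of the class by TPM, had 329, 327 and 351 CPM at day 0, 625, 631 and 640.3 CPM at day 6 and 478, 454 and 498 CPM at day 12. It rose 1.88-fold at day 6 (log2 fold change 0.91 ± 0.039 (SE), adjusted p = 1.16e-11). Sema3f, a ligand of Nrp2, rose 1.83-fold (41.5, 41.3 and 44.3 CPM at day 6, 22.5, 23.4 and 23.5 CPM at day 0; log2 fold change 0.87 ± 0.04 (SE), adjusted p = 3.33e-11). Sema3b, another neuropilin ligand, rose 1.41-fold. Sema3e, which binds Plxnd1 without a neuropilin, did not pass the test at 50.98 ± 2.4 CPM at day 6 and 51.5 ± 2.3 CPM at day 0, nor did Sema3g at 1.75 ± 0.14 and 1.95 ± 0.058 CPM.

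The receptors of these ligands moved unequally. Nrp2 (ENSMUSG00000025969, GRCm38 chr1:62703285-62818695, plus strand), the neuropilin that binds Sema3f and Sema3c, had 58.2, 59.5 and 60.9 CPM at day 0, 397, 402 and 405 CPM at day 6 and 318, 278 and 282 CPM at day 12. Every day 6 library lay far above every day 0 library (6.74-fold, log2 fold change 2.75 ± 0.047 (SE), adjusted p = 3.48e-16). Its paralogue Nrp1 had 61.8, 57.6 and 64.2 CPM at day 0, 50.1, 48.1 and 49.9 CPM at day 6 and 58.8, 52.9 and 57.6 CPM at day 12. It was lower at day 6 (log2 fold change -0.31 ± 0.045 (SE), adjusted p = 2.05e-05). The TPM of Nrp2 divided by that of Nrp1 gave 0.524 ± 0.027 for day 0, 4.36 ± 0.12 for day 6 and 2.79 ± 0.15 for day 12. Untreated cells therefore held more Nrp1 transcript, and both later groups more Nrp2.

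Of 8 tested plexins, the signalling receptors of semaphorins, 6 were higher at day 6 and 2 lower, where 33.5% of all tested genes were higher and 31.4% lower. All but 1 of the 8 changed by less than 2-fold. Plxnd1, the receptor of Sema3e, lay just under that limit at 1.98-fold (127, 129 and 130.0 CPM at day 6, 61.9, 66.8 and 66.4 CPM at day 0, log2 fold change 0.99 ± 0.035 (SE), adjusted p = 1.71e-12). On the TPM scale Plxnd1 averaged 36.1 ± 1.3 at day 6 and 22.1 ± 1.2 at day 0, a smaller ratio. Plxna2 rose 1.796-fold, Plxna3 1.35-fold, Plxna1 1.27-fold and Plxnb1, the Sema4d receptor, 1.13-fold. The Plxna1 call was lost on log2(TPM + 1) tested with limma (log2 fold change 0.17, adjusted p = 0.216), and 10.7% of its exon bases are shared with a gene on the opposite strand by annotation, while the strand setting of the counting is not given in the sources used here. Plxnb3 stayed under 1 CPM, and its call (adjusted p = 0.019) was lost without day 6 library A (adjusted p = 0.0696) and on the TPM scale (adjusted p = 0.0572). Plxnb2, the highest member by TPM, had 1126, 1130.5 and 1150.4 CPM at day 0, 1002, 1011 and 1019 CPM at day 6 and 956, 854 and 912 CPM at day 12. It was 1.12-fold lower (log2 fold change -0.17 ± 0.038 (SE), adjusted p = 0.00126), without overlap in CPM, but the call was lost on the TPM scale (log2 fold change -0.04, adjusted p = 0.466). Plxnc1, the receptor of Sema7a, fell to 0.302 ± 0.038 CPM at day 6, against 0.864 ± 0.17 CPM at day 0 (log2 fold change -1.495 ± 0.25, adjusted p = 8.67e-05).

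Class 4 to 7 semaphorins, which are mostly held in the membrane, split into 5 higher, 5 lower and 2 not called of 12. The shares over all tested genes were 33.5% higher and 31.4% lower. Sema5a (ENSMUSG00000022231, GRCm38 chr15:32244810-32696341, plus strand), a transmembrane semaphorin with thrombospondin repeats, had 165, 169 and 177 CPM at day 0, 17.7, 17.7 and 18.6 CPM at day 6 and 53.6, 46.9 and 49.98 CPM at day 12. Day 6 lay far below both other groups (9.47-fold lower than day 0, log2 fold change -3.24 ± 0.049 (SE), adjusted p = 8.91e-17). Sema7a (ENSMUSG00000038264, GRCm38 chr9:57940112-57962865, plus strand), anchored by a lipid and able to bind integrins, had 3.297, 3.36 and 3.24 CPM at day 0, 0.739, 0.823 and 0.7402 CPM at day 6 and 1.42, 1.85 and 1.81 CPM at day 12. The days did not overlap (4.28-fold lower at day 6, log2 fold change -2.098 ± 0.14 (SE), adjusted p = 3.61e-09). Sema4d, the Plxnb1 ligand, fell 1.82-fold to 67.9 ± 3.8 CPM at day 6, against 123 ± 7.6 CPM at day 0 (log2 fold change -0.86 ± 0.048, adjusted p = 3.59e-10). Sema5b also fell, at no more than 1.05 CPM in any day 0 library and not called on log2(TPM + 1) (adjusted p = 0.0552), and Sema4b fell 1.17-fold. Sema6a (ENSMUSG00000019647, GRCm38 chr18:47235598-47368870, minus strand), a ligand of class A plexins, had 0.944, 0.991 and 0.779 CPM at day 0, 3.72, 4.03 and 4.61 CPM at day 6 and 5.195, 4.64 and 4.24 CPM at day 12. It went the other way (4.54-fold higher at day 6, log2 fold change 2.18 ± 0.13 (SE), adjusted p = 1.08e-09). Sema4a, the highest of these by mean TPM over all libraries although Sema4d stood above it at day 0 (40.7 TPM for Sema4d, 26.5 TPM for Sema4a), had 38.1, 36.99 and 37.7 CPM at day 0, 58.5, 58.9 and 59.2 CPM at day 6 and 56.5, 56.1 and 54.6 CPM at day 12. It rose 1.57-fold (log2 fold change 0.65 ± 0.031, adjusted p = 4.91e-11). Sema4g, Sema4c and Sema6c rose by 1.69-fold, 1.41-fold and 1.22-fold, and Sema4f and Sema6b did not pass (log2 fold changes -0.09 ± 0.079 and -0.52 ± 0.22).

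Among Slits and Robos the pair Slit2 and Robo2 rose. Slit2 (ENSMUSG00000031558, GRCm38 chr5:47983138-48307733, plus strand), a secreted repellent, had 5.02, 4.76 and 5.004 CPM at day 0, 133, 122 and 129 CPM at day 6 and 158, 141 and 147 CPM at day 12. Its lowest day 6 library exceeded the highest day 0 library more than 20-fold by CPM (25.9-fold by the fit, log2 fold change 4.696 ± 0.057 (SE), adjusted p = 7.28e-18). On the TPM scale Slit2 averaged 26.1 ± 1.1 at day 6 and 1.32 ± 0.19 at day 0, a smaller ratio. Robo2 (ENSMUSG00000052516, GRCm38 chr16:73891839-74411825, minus strand), its receptor, had 1.64, 1.29 and 1.08 CPM at day 0, 9.51, 8.78 and 7.59 CPM at day 6 and 7.77, 6.47 and 6.48 CPM at day 12. Day 6 was 6.39-fold above day 0 with no overlap (log2 fold change 2.68 ± 0.14 (SE), adjusted p = 1.01e-10). Slit1 and Robo1 stayed under 1 CPM in every library and were not called (log2 fold changes 0.09 ± 0.36 and 0.47 ± 0.3). The TPM of Slit2 divided by that of Robo2 gave 1.73 ± 0.4 for day 0, 6.25 ± 1.0 for day 6 and 9.24 ± 2.1 for day 12.

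The promoter stretches of the 5 members with at least a 5-fold change at day 6 and a single RefSeq start are shown because these genes carry the largest differences and are read here for shared letters. Robo2, the sixth such member, has several starts in the table and is not shown. Each stretch is from RefSeq (GRCm38.p6), lies within 250 bases before the start, leaves out bases that fall in a GENCODE exon, and is written 5′ to 3′ on the gene's own strand. Capitals mark the GC box GGGCGG and the TATA box TATAAA on either strand.
Slit2, GRCm38.p6 chr5:47982905-47983137, plus strand: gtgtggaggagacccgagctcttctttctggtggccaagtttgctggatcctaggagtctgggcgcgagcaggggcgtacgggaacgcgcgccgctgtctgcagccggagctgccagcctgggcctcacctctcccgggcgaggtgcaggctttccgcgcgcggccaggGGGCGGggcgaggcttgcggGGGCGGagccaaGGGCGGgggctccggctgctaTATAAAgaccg
Sema3d, GRCm38.p6 chr5:12382916-12383165, plus strand: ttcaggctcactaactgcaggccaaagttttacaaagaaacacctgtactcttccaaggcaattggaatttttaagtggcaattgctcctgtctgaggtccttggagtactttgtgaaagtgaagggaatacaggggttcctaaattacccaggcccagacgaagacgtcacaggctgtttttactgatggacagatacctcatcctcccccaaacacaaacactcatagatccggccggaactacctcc
Nrp2, GRCm38.p6 chr1:62703067-62703284, plus strand: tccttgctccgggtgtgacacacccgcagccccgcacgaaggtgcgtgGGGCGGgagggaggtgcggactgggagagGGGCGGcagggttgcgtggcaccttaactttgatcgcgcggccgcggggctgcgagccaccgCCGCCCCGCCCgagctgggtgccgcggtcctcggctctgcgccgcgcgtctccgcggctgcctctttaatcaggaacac
Sema5a, GRCm38.p6 chr15:32244663-32244809, plus strand: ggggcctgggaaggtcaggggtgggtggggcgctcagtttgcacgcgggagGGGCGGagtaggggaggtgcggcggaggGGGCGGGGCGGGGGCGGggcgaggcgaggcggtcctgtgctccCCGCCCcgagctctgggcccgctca
Ephb2, GRCm38.p6 chr4:136836013-136836262, minus strand: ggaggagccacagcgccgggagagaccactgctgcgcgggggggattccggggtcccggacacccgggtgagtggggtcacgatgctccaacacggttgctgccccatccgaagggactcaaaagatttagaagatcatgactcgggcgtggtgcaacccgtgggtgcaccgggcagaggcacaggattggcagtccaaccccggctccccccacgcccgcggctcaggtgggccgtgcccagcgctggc

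Slit2 held GC boxes that began 81, 61 and 49 bases before the start and a TATA box that began 28 bases before it. Nrp2, also higher, held GC boxes at 202, 173, 111 and 106 bases before the start, and Sema5a, which was lower, at 99, 71, 66, 60 and 28 bases. Neighbouring boxes at 111 and 106 and at 71 and 66 share a base. Sema3d, with the largest rise, and Ephb2, which fell, held neither. Of the 59 windows of tested members, 43 (72.9%) held the GC box. The GC box was in 32.7% and the TATA box in 12.4% of all 32851 RefSeq windows of 250 bases before a start. Counted by gene, 34 of the 44 tested members with a window held the GC box in at least 1 window, among them 20 of 25 that were higher at day 6 and 10 of 13 that were lower. The GC box and the TATA box were searched after the sequences had been seen. The other motifs searched, on both strands, were the paired-domain core GTCACGC (1.78% of windows), the AP-1 site TGANTCA (6.75%), the TEAD site GGAATG (12.6%), the E-box CACGTG (6.02%), the NF-kB letters GGGANTT (14.4%) and the HNF1 letters GTTAAT (6.43%). None of these letters occurred in the 5 printed stretches, and GTCACGC, the core searched for paired-domain factors such as PAX8, occurred in none of the 59 windows of tested members. Windows of Robo2, which is not printed, held the E-box and the HNF1 letters. Of the 59 windows 5.08% held the AP-1 site, 11.9% the TEAD site and 3.39% the E-box. The NF-kB letters were in 10.2% and the HNF1 letters in 3.39%.

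EphB receptors, the kinases that bind B-type ephrins, moved in both directions. Ephb2 (ENSMUSG00000028664, GRCm38 chr4:136647539-136835988, minus strand), whose signalling repels migrating cells and axons on contact, had 10.3, 10.6 and 11.4 CPM at day 0, 1.95, 2.23 and 1.95 CPM at day 6 and 3.57, 3.05 and 3.28 CPM at day 12. It was 5.24-fold lower at day 6 than at day 0, without overlap (log2 fold change -2.39 ± 0.089 (SE), adjusted p = 2.65e-12). Ephb3 (ENSMUSG00000005958, GRCm38 chr16:21204755-21223305, plus strand), a close relative, had 18.9, 18.6 and 18.4 CPM at day 0, 63.7, 62.9 and 64.2 CPM at day 6 and 59.9, 55.9 and 54.05 CPM at day 12. It was 3.41-fold higher at day 6 (log2 fold change 1.77 ± 0.04 (SE), adjusted p = 8.49e-15). Ephb4, the receptor of Efnb2 in vessels and the highest EphB by TPM, had 85.7, 84.3 and 87.1 CPM at day 0, 126, 126 and 128 CPM at day 6 and 127, 121 and 121 CPM at day 12. It rose 1.48-fold (log2 fold change 0.57 ± 0.03 (SE), adjusted p = 1.79e-10). The TPM of Ephb3 divided by that of Ephb2 gave 2.02 ± 0.15 for day 0, 29.98 ± 1.7 for day 6 and 18.04 ± 0.7 for day 12.

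EphA receptors, which bind A-type ephrins, were led by Epha2, an abundant epithelial receptor. It had 155, 152 and 164 CPM at day 0, 157, 152 and 155 CPM at day 6 and 138, 132 and 132 CPM at day 12. Day 6 and day 0 overlapped and the test was not passed (log2 fold change -0.02 ± 0.033 (SE), adjusted p = 0.586). Epha7, a receptor of developing brain and kidney, had 6.93, 7.41 and 8.87 CPM at day 0, 16.7, 16.5 and 14.8 CPM at day 6 and 20.2, 19.4 and 19.9 CPM at day 12. It was 2.07-fold higher (log2 fold change 1.05 ± 0.078 (SE), adjusted p = 9.58e-09). Epha1, under 1 CPM throughout, was called lower (adjusted p = 0.0316), but the call was lost without day 0 library A or C or day 6 library A or B (adjusted p 0.079 to 0.142), with DESeq2, and on the TPM scale (adjusted p = 0.0716).

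The A-type and B-type ephrins called at day 6 differed in direction, where 33.5% of all tested genes were higher and 31.4% lower. All 5 A-type ephrins, which are anchored by a lipid, were higher at day 6: Efna2 2.46-fold, Efna3 2.15-fold, Efna4 1.56-fold, Efna5 1.23-fold and Efna1 1.14-fold. Efna1, the main ligand of Epha2 and the highest of the group by TPM, had 36.2, 33.4 and 34.02 CPM at day 0, 40.2, 40.9 and 37.1 CPM at day 6 and 31.4, 33.0 and 32.8 CPM at day 12. Its rise was small but without overlap (log2 fold change 0.19 ± 0.045 (SE), adjusted p = 0.0015). Efna2 had 0.585, 0.431 and 0.461 CPM at day 0, 1.21, 1.15 and 1.33 CPM at day 6 and 1.63, 1.07 and 1.16 CPM at day 12 (log2 fold change 1.298 ± 0.22, adjusted p = 7.51e-05). Efna3 had 3.596, 2.96 and 2.94 CPM at day 0, 7.02, 7.02 and 6.47 CPM at day 6 and 8.06, 8.65 and 7.44 CPM at day 12 (log2 fold change 1.104 ± 0.093, adjusted p = 4.42e-08). By annotation, 14.1% of its exon bases and 10.5% of those of Efna4 are shared with genes on the opposite strand, as for Plxna1. Of the 3 B-type ephrins, which cross the membrane, Efnb2 and Efnb1 were lower and Efnb3 was not called. Efnb2, the ligand of Ephb4, had 134, 137 and 137 CPM at day 0, 87.9, 83.3 and 82.7 CPM at day 6 and 126, 129 and 124 CPM at day 12. Day 6 lay below both other days (1.605-fold lower than day 0, log2 fold change -0.68 ± 0.031 (SE), adjusted p = 3.02e-11). Efnb1 was 1.18-fold lower at 24.8 ± 0.67 CPM at day 6, against 29.1 ± 0.61 CPM at day 0 (log2 fold change -0.23 ± 0.043, adjusted p = 0.000181), a call lost on the TPM scale (log2 fold change -0.13, adjusted p = 0.0637). The TPM of Efna1 divided by that of Efnb2 gave 0.951 ± 0.049 for day 0, 1.72 ± 0.082 for day 6 and 0.948 ± 0.032 for day 12.

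Netrins are laminin-like secreted proteins, and Ntn1 both attracts and repels depending on the receptor. Ntn1 (ENSMUSG00000020902, GRCm38 chr11:68209364-68400823, minus strand) had 343, 334 and 338 CPM at day 0, 227, 219.9 and 218 CPM at day 6 and 282, 263 and 262 CPM at day 12. It was 1.53-fold lower at day 6 than at day 0 without overlap (log2 fold change -0.61 ± 0.034 (SE), adjusted p = 3.76e-10). Ntn4, a netrin of basement membranes, was 1.43-fold lower as well (21.2, 21.8 and 22.4 CPM at day 6, 31.4, 30.3 and 31.9 CPM at day 0; log2 fold change -0.52 ± 0.041, adjusted p = 2.10e-08). Ntn3 had 0.932, 1.55 and 1.15 CPM at day 0, 2.47, 2.99 and 3.03 CPM at day 6 and 2.48, 2.65 and 2.701 CPM at day 12. It was 2.36-fold higher (log2 fold change 1.24 ± 0.16, adjusted p = 7.14e-06). Unc5b (ENSMUSG00000020099, GRCm38 chr10:60762593-60831581, minus strand), a repulsive netrin receptor, had 16.4, 17.6 and 16.7 CPM at day 0, 39.7, 41.1 and 39.8 CPM at day 6 and 42.6, 39.99 and 38.7 CPM at day 12. It rose 2.38-fold (log2 fold change 1.25 ± 0.045 (SE), adjusted p = 1.62e-12). Ntn1 and Unc5b thus moved in opposite directions, whereas Ntn3 rose as Unc5b did. The TPM of Ntn1 divided by that of Unc5b gave 22.5 ± 1.4 for day 0, 6.25 ± 0.24 for day 6 and 7.71 ± 0.16 for day 12.

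**Figure D2:**
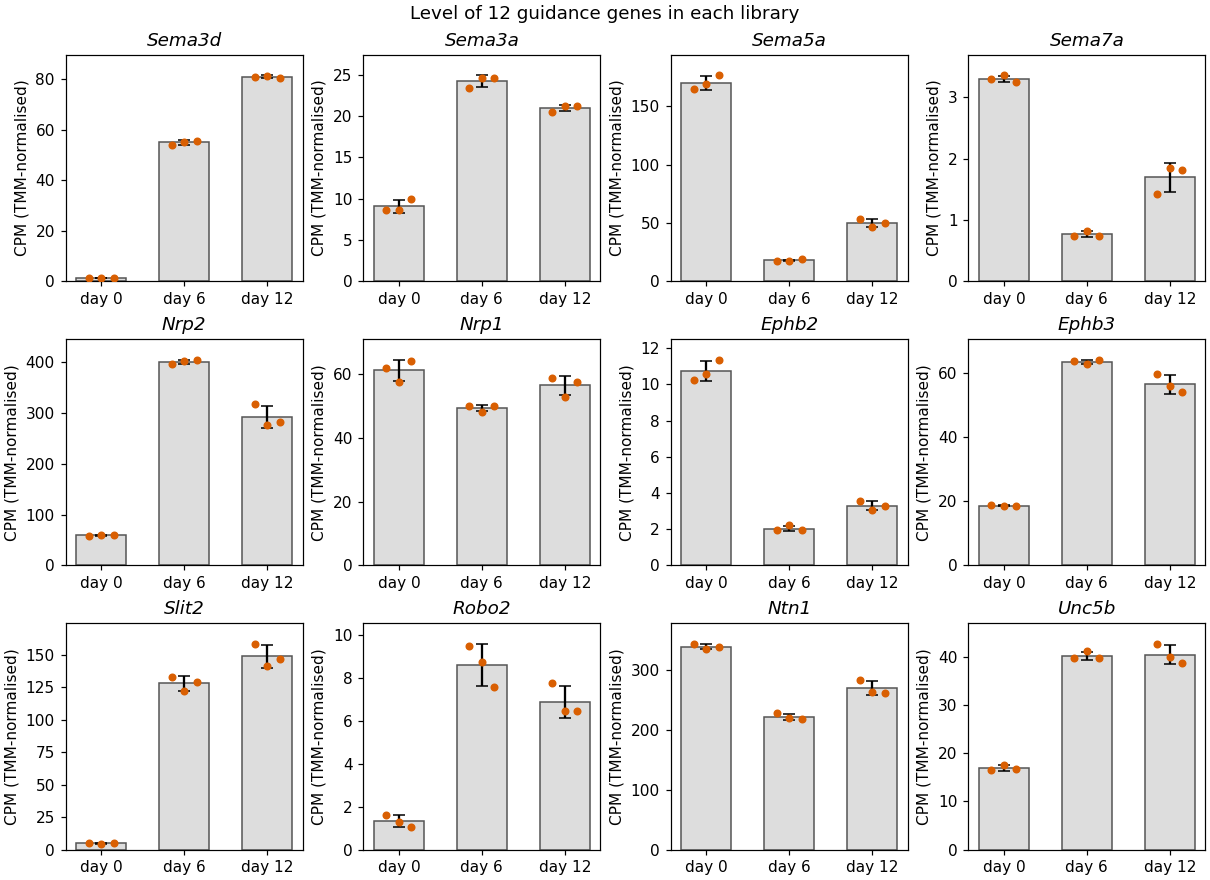
TMM-normalised CPM of 12 guidance genes in the 9 libraries, with points for libraries and bars with error bars for the mean ± SD of 3 libraries at each day. Sema3d, Slit2, Nrp2 and Robo2 were lowest at day 0 and higher on both later days. Sema5a, Sema7a and Ephb2 were highest at day 0 and lowest at day 6.

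The second comparison sets day 12 after doxycycline against day 6 and asks what differed once the Pax8 vector was meant to be induced. Its changes were smaller: Sema5a, Sema7a, Sema6b and Sema5b rose at least 2-fold, and no member fell that far. In all 21 members were higher, 17 lower and 13 not called. Of all tested genes 45.3% were called, 22.6% higher and 22.7% lower, and at least 2-fold 2.28% were called higher and 1.99% lower (4.27% in all). The median log2 fold change was 0.08 over members and 0.01 over all genes. Groups did not overlap in 38 members and in 53.9% of all genes. Of the ligands 17 were higher and 8 lower, and of the receptors 4 were higher and 9 lower. The split depended on the scale. On log2(TPM + 1) with limma 24 members were higher and 3 lower, and 90.1% of called genes were higher, against 49.97% with TMM. The median of all genes lay at 0.16 on that scale. Upper-quartile scaling gave 60.5% higher over all genes and 22 members higher against 16 lower. Small falls at day 12 are therefore falls relative to the median gene, and Nrp2, Sema3c and Sema3a were the 3 members still called lower on TPM.

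Sema5a, Sema7a and Ephb2, which had fallen at day 6, were higher again at day 12, whereas Sema4d, which had also fallen, did not pass by TMM (log2 fold change 0.10 ± 0.049, adjusted p = 0.123) and was called higher on the TPM scale (log2 fold change 0.32, adjusted p = 0.00363). Sema5a was 2.79-fold higher at day 12 than at day 6 (log2 fold change 1.48 ± 0.049 (SE), adjusted p = 1.22e-11), yet every day 12 library stayed under 54 CPM and every day 0 library over 160 CPM. Sema7a was 2.19-fold higher (log2 fold change 1.13 ± 0.15 (SE), adjusted p = 2.41e-05) and Ephb2 1.61-fold (log2 fold change 0.69 ± 0.098 (SE), adjusted p = 4.58e-05), again short of day 0. Sema5b (0.879, 1.11 and 0.746 CPM at day 12, 0.236, 0.378 and 0.3098 CPM at day 6) and Sema6b (0.879, 1.06 and 1.04 CPM at day 12, 0.399, 0.432 and 0.551 CPM at day 6) rose 2.95-fold and 2.16-fold, at about 1 CPM. Efnb2 rose 1.49-fold (log2 fold change 0.58 ± 0.031 (SE), adjusted p = 2.64e-09), Ntn4 1.49-fold (log2 fold change 0.57 ± 0.041, adjusted p = 4.80e-08), Ntn1 1.21-fold (log2 fold change 0.28 ± 0.034, adjusted p = 1.16e-05) and Nrp1 1.14-fold (log2 fold change 0.19 ± 0.046, adjusted p = 0.00294). Sema3g, a class 3 semaphorin of vessels, was not called at day 6 against day 0 and rose 1.898-fold at day 12 (3.205, 3.51 and 3.199 CPM at day 12, 1.76, 1.61 and 1.88 CPM at day 6; log2 fold change 0.92 ± 0.11, adjusted p = 1.00e-05).

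Several members that had risen at day 6 rose further. Sema3d was 1.47-fold higher at day 12 than at day 6, with libraries about 25 CPM apart (log2 fold change 0.56 ± 0.032 (SE), adjusted p = 4.98e-09). Slit2 was 1.16-fold higher (log2 fold change 0.22 ± 0.041 (SE), adjusted p = 0.000582) and Epha7 1.24-fold (log2 fold change 0.31 ± 0.072, adjusted p = 0.00249). Sema3b and Sema3f rose 1.17-fold and 1.11-fold, as did, from other starts, Sema4f (1.46-fold), Efnb1 (1.19-fold) and Sema4b (1.13-fold). Efna3 was called higher (adjusted p = 0.0333), but not without day 6 library A or C or day 12 library A or B (adjusted p 0.0579 to 0.136) nor with DESeq2 (adjusted p = 0.0557).

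Nrp2, Sema3c and Sema3a, which had also risen at day 6, fell part of the way back. Nrp2 was 1.37-fold lower at day 12 than at day 6, with day 12 library A closest to day 6 (log2 fold change -0.46 ± 0.043 (SE), adjusted p = 9.08e-07; log2 fold change −0.24 and adjusted p = 0.00722 on the TPM scale). Sema3c was 1.33-fold lower (log2 fold change -0.41 ± 0.038 (SE), adjusted p = 8.21e-07) and Sema3a 1.15-fold (log2 fold change -0.21 ± 0.053, adjusted p = 0.005). Ephb3, Epha2 and Plxnb2 were lower by TMM (log2 fold changes -0.17 ± 0.037, -0.21 ± 0.033 and -0.16 ± 0.038), but on the TPM scale the signs turned to 0.03, 0.02 and 0.01. Efna1, Efna4, Efna5, Sema3e, Sema4c, Plxna1, Plxna2 and Plxnd1 were lower by 1.14-fold to 1.26-fold by TMM and not called on TPM, where the sign of Efna4 turned (0.02). Robo2 was called lower (log2 fold change -0.32 ± 0.11, adjusted p = 0.028) although its groups overlapped, and the call was lost without day 6 library A or B or day 12 library B or C (adjusted p 0.072 to 0.133) and on the TPM scale (adjusted p = 0.707). Sema4a was just called lower (adjusted p = 0.0428). Leaving out any library but day 0 C ended the Sema4a call (adjusted p 0.0506 to 0.14), and its sign turned on TPM. Plxnb3 was called lower, and Plxnc1 and Sema6c higher (adjusted p 0.0295, 0.032 and 0.0147). The Plxnb3 call was lost without day 6 A, day 12 A or day 12 C (adjusted p 0.0738 to 0.126). That of Plxnc1 was lost without any of the day 6 libraries, day 12 A or day 12 C (0.056 to 0.129). That of Sema6c was lost without day 6 B, day 12 A or day 12 B (0.054 to 0.0622). Plxnb3 and Plxnc1 were also not called with DESeq2 or on the TPM scale. Unc5b (log2 fold change 0.01 ± 0.042, adjusted p = 0.872), Sema6a (log2 fold change 0.19 ± 0.11, adjusted p = 0.174), Ephb4 (log2 fold change -0.04 ± 0.03, adjusted p = 0.24) and Ntn3 (log2 fold change -0.12 ± 0.15, adjusted p = 0.565) did not pass, nor did Sema4g, Plxna3, Plxnb1, Efna2, Efnb3, Slit1, Robo1 and Epha1 (log2 fold changes -0.15 to 0.51). On the TPM scale Unc5b (log2 fold change 0.20, adjusted p = 0.0166), Ephb4 (log2 fold change 0.16, adjusted p = 0.00723) and Plxnb1 (log2 fold change 0.20, adjusted p = 0.0294) were called higher, each within 0.04 of the median of all genes.

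**Figure D3:**
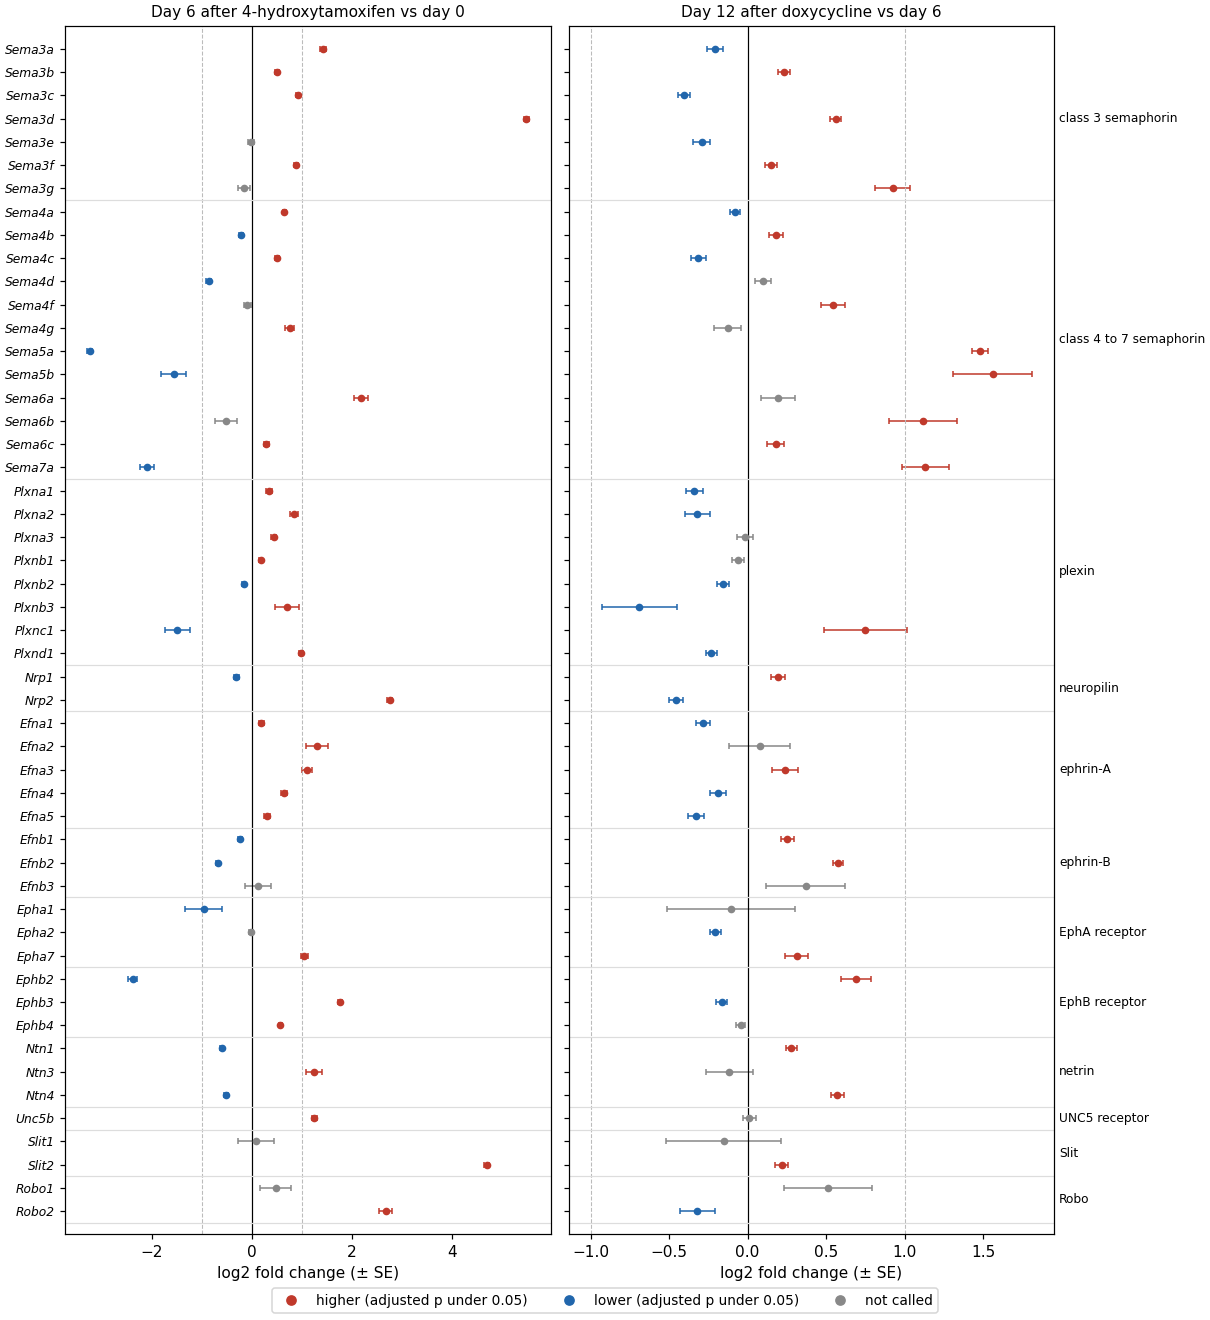
Log2 fold change ± SE of the 51 tested members by family, for day 6 after 4-hydroxytamoxifen against day 0 (left) and day 12 after doxycycline against day 6 (right, narrower axis); red is higher, blue lower and grey not called, and dashed lines mark 2-fold. The comparisons share the day 6 libraries. Sema3d and Slit2 lie farthest right and Sema5a farthest left in the left panel, and Sema5b and Sema5a farthest right in the right panel.

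The third comparison sets day 12 after doxycycline against untreated day 0 and shares libraries with both others, so it adds no independent evidence. Here 29 members were higher, 12 lower and 10 not called, and 13 were higher and 3 lower by at least 2-fold. Of all tested genes 66.4% were called, 34.7% higher and 31.7% lower, and 9.43% and 4.18% by at least 2-fold. Groups did not overlap in 41 members and in 69.7% of all genes. On log2(TPM + 1) 36 members were higher and 5 lower, and 81.3% of called genes were higher, against 52.3% with TMM. The median of all genes was 0.19 on that scale. Sema3d stood 66.4-fold higher than at day 0 (log2 fold change 6.05 ± 0.052 (SE), adjusted p = 9.63e-19), Slit2 30.1-fold (log2 fold change 4.91 ± 0.057 (SE), adjusted p = 1.30e-17) and Sema6a 5.19-fold (log2 fold change 2.38 ± 0.13, adjusted p = 4.34e-10). Robo2 was 5.11-fold and Nrp2 4.92-fold higher (log2 fold change 2.35 ± 0.14, adjusted p = 7.12e-10, and log2 fold change 2.297 ± 0.046, adjusted p = 4.14e-15). Ephb3 (3.04-fold), Efna2 (2.59-fold), Epha7 (2.57-fold), Efna3 (2.53-fold), Unc5b (2.396-fold), Sema3a (2.31-fold), Ntn3 (2.18-fold) and Sema3f (2.03-fold) were also at least 2-fold higher.

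Sema5a was still 3.39-fold lower than at day 0 (log2 fold change -1.76 ± 0.044 (SE), adjusted p = 4.20e-14) and Ephb2 3.25-fold lower (log2 fold change -1.700 ± 0.083 (SE), adjusted p = 8.97e-11). Epha1, the third, had under 1 CPM, and its call (adjusted p = 0.0182) was lost without day 0 A, day 0 C, day 12 A or day 12 C (adjusted p 0.0506 to 0.0879). Sema7a was 1.95-fold lower, just short of 2-fold (log2 fold change -0.97 ± 0.13, adjusted p = 8.30e-06), and Robo1 1.98-fold higher at under 1 CPM (log2 fold change 0.98 ± 0.29, adjusted p = 0.00748). Ntn1 was 1.26-fold and Plxnb2 1.25-fold lower (log2 fold change -0.33 ± 0.034, adjusted p = 5.39e-07, and log2 fold change -0.32 ± 0.038, adjusted p = 2.51e-06), and both calls were lost on the TPM scale (log2 fold change -0.02, adjusted p = 0.742, and log2 fold change -0.03, adjusted p = 0.561). Ntn4, Efnb1, Sema4b, Plxna1 and Efna5 did not pass at day 12 against day 0, with log2 fold changes of 0.05 ± 0.04, 0.02 ± 0.042, -0.04 ± 0.043, 0.00 ± 0.054 and -0.02 ± 0.054. On the TPM scale 4 of these were called higher, Ntn4 (log2 fold change 0.30, adjusted p = 0.000264), Efnb1 (log2 fold change 0.29, adjusted p = 0.00083), Sema4b (log2 fold change 0.20, adjusted p = 0.0127) and Efna5 (log2 fold change 0.31, adjusted p = 0.0056). Efnb2 was 1.08-fold lower by TMM (log2 fold change -0.10 ± 0.031, adjusted p = 0.00724) and higher on TPM (log2 fold change 0.15, adjusted p = 0.00313), and not called with upper-quartile factors. Epha2 was lower by TMM (log2 fold change -0.23 ± 0.033, adjusted p = 2.08e-05) and did not pass on TPM (0.04). Nrp1 was called lower (adjusted p = 0.0309), but not without day 0 A, day 0 C or day 12 B (adjusted p 0.0831 to 0.17), with upper-quartile factors, or on the TPM scale, where its sign turned (log2 fold change 0.14, adjusted p = 0.07). Further calls were lost without single libraries, namely Sema6b (adjusted p = 0.0193) without day 0 B, day 0 C, day 12 B or day 12 C (0.0555 to 0.0685), Plxnc1 (0.011) without day 0 B or day 12 B (0.0561 to 0.0601) and Plxnb1 (0.0129) without day 12 A (0.0594) or with DESeq2. The Epha1 call was lost on the TPM scale too (adjusted p = 0.0756).

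**Figure D4:**
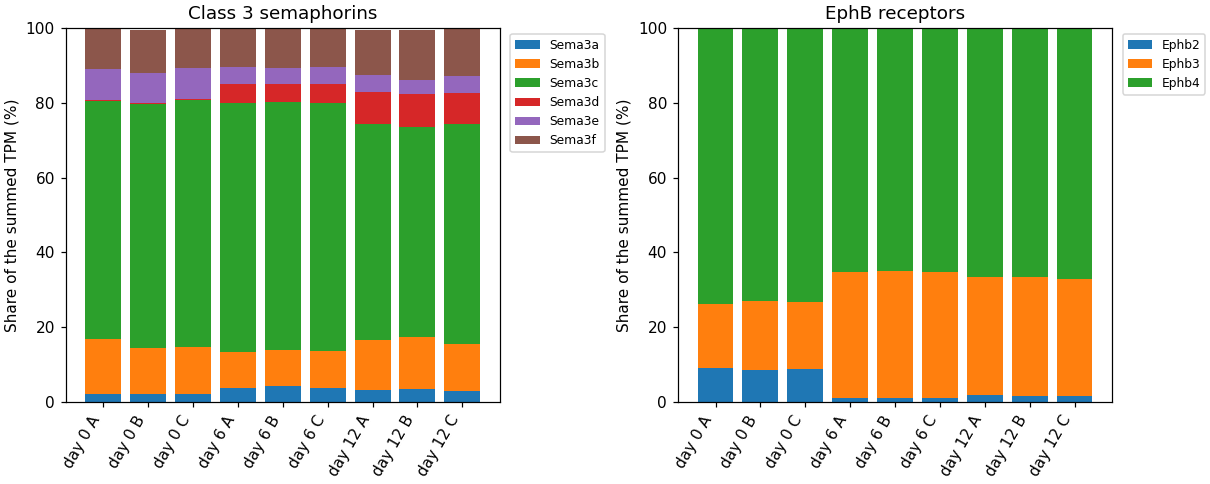
Share of the family's summed TPM taken by each class 3 semaphorin (left) and each EphB receptor (right) in the 9 libraries; Sema3g and the EphB receptors near 0 (under 1% in every library) are not drawn. Sema3d took 0.213% of class 3 semaphorin TPM at day 0, 5.02% at day 6 and 8.59% at day 12, and Ephb2 took 8.86%, 1.13% and 1.75% of EphB receptor TPM.

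Co-receptors, further ligands and intracellular effectors of guidance were read from a list of 85 symbols, of which 84 were found and 71 tested. At day 6 against day 0, 32 were higher, 22 lower and 17 not called, where 33.5% of all tested genes were higher and 31.4% lower (64.9% called). Dpysl3, a cytoskeletal mediator of semaphorin signalling, averaged 34.5 ± 1.9 CPM at day 6 and 0.304 ± 0.08 CPM at day 0 (111-fold, log2 fold change 6.79 ± 0.099, adjusted p = 6.64e-17). Flrt2, a ligand of UNC5 receptors, rose 6.57-fold (log2 fold change 2.72 ± 0.061, adjusted p = 6.37e-15), Flt1, a VEGF receptor, 4.52-fold, and Plxdc2, a membrane protein with a plexin-like domain, 3.46-fold. L1cam, an adhesion molecule that partners Nrp1 in axons, had 210.4, 218 and 222 CPM at day 0, 4.86, 5.87 and 5.97 CPM at day 6 and 77.8, 72.5 and 76.6 CPM at day 12. It was 39.0-fold lower at day 6 (log2 fold change -5.29 ± 0.057, adjusted p = 2.78e-18). Cntn2, an axonal adhesion molecule, fell 27.01-fold, Chn2, a Rac GTPase-activating protein, 4.94-fold and Flrt1 4.27-fold. The netrin receptor gene Dcc had 1 count in all libraries together and was not tested. Its relative Neo1 did not pass (96.5 ± 1.5 CPM at day 6, 91.6 ± 0.55 CPM at day 0; log2 fold change 0.07 ± 0.043, adjusted p = 0.146), and Adam10, a protease that sheds ephrins, was 1.14-fold higher.

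At day 12 against day 6, 16 of these genes were higher, 28 lower and 27 not called by TMM. On log2(TPM + 1) 34 were higher and 10 lower (77.3% of those called were higher). On that scale 90.1% of all called genes were higher. Of all tested genes 22.6% were higher and 22.7% lower by TMM (45.3% called). L1cam rose 13.6-fold (log2 fold change 3.77 ± 0.058, adjusted p = 2.46e-15), and Chn1 (1.79-fold) and Chn2 (1.61-fold) were also among the higher genes. By annotation 11.8% of the exon bases of Chn1 and 10.6% of those of Chn2 are shared with genes on the opposite strand. Pak3, a Rac-activated kinase, fell 1.77-fold, Mical2, an actin oxidase, 1.45-fold, Flt1 1.44-fold and Met, the receptor of hepatocyte growth factor, 1.38-fold. Neo1 and Adam10 were slightly lower (log2 fold changes -0.12 ± 0.043 and -0.15 ± 0.033, adjusted p 0.0322 and 0.00187). At day 12 against day 0, log2(TPM + 1) gave 45 higher and 11 lower (80.4% of those called were higher). On that scale 81.3% of all called genes were higher. By TMM 30 of these genes were higher, 23 lower and 18 not called (66.4% of all tested genes called). Dpysl3 (83.7-fold), Flrt2 (6.72-fold), Plxdc2 (5.31-fold) and Flt1 (3.15-fold) led the higher genes. Cntn2 (8.34-fold), Flrt1 (3.49-fold), Chn2 (3.08-fold) and L1cam (2.87-fold) led the lower ones, and Neo1 and Adam10 did not pass (log2 fold changes -0.05 ± 0.043 and 0.04 ± 0.033).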

How the data were processed

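RNA-seq of polyadenylated RNA gave 9 libraries. The authors deposited 2 tables, of raw integer counts for each gene and of TPM. The submitters' processing notes name RSEM 1.3.3, STAR 2.7.8a, FastQC 0.11.8, cutadapt 2.3 and the build GRCm38. What each tool did, which annotation was counted and with which strand setting was not given in the sources used here. From the counts, 4 transgene rows (at most 0.00284% of a library) were left out, 16353 genes passed edgeR's filterByExpr, and 1 quasi-likelihood fit of all 9 libraries (edgeR 4.0.16, TMM, 6 residual degrees of freedom) gave the 3 comparisons, with Benjamini-Hochberg adjustment over all genes tested; SE is the log2 fold change divided by the square root of F. Calls have adjusted p under 0.05. Alternatives used DESeq2 1.42.0 and limma 3.58.1 on log2(TPM + 1) or log2(TPM + 0.1). The code was tested on simulated data. Libraries of a group differed by more than counting noise. Positions and overlaps are from GENCODE M21.

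Members and gene lists were chosen with earlier results of these data known. Members given per library passed a 2-fold change with adjusted p under 0.05 and at least 1 CPM in the higher group, or led their family in TPM. Nrp1, Plxnd1, Ntn4, Sema3g, Sema5b and Sema6b, which did not meet this rule, are also given per library and were chosen after their values were seen. The other guidance genes named are the 4 per direction with the largest called change and at least 5 CPM, with L1cam, Dcc, Neo1 and Adam10; 1 of the 4 higher at day 12 against day 6 is not reported here.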

Additional observations from a re-analysis of the deposited data

How the results depend on the processing

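All 9 counts of calls (all genes, members and other guidance genes in each comparison) stayed within 1.5 times their value under each alternative run: other scaling factors, mitochondrial genes left out, no filter or at least 1 CPM in 3 libraries, DESeq2, only the 6 libraries compared, the replicate block, TPM with limma, and each library left out. With 51 members tested, the member counts could not pass the upper limit, and a count does not show which calls changed. For day 12 against day 6 on log2(TPM + 1), 15 of the 38 member calls were lost and 4 were gained. Leaving out 1 library gave 41 to 44 members called for day 6 against day 0, 33 to 38 for day 12 against day 6 and 38 to 42 for day 12 against day 0. Among the 24 members chosen by the rule for values per library, signs of values called on either scale turned with log2(TPM + 1) and log2(TPM + 0.1) and with no other alternative. For day 12 against day 6 these were Epha2 (0.0150 and 0.0152), Ephb3 (0.0288 and 0.0299), Ephb4 (0.163 and 0.166), Plxnb2 (0.0102 and 0.0102) and Sema4a (0.0330 and 0.0338). For day 12 against day 0 these were Efna1 (0.151 and 0.154), Efnb2 (0.154 and 0.157) and Epha2 (0.0433 and 0.0440). On those scales the median of all genes itself lay at 0.164 and 0.208 for day 12 against day 6 and at 0.186 and 0.254 for day 12 against day 0, and each value just given lay below it. Without turning, calls were lost on both TPM scales by Plxnb2 (day 6 and day 12 against day 0), Ntn1 (day 12 against day 0), Efna1 and Robo2 (day 12 against day 6). Calls were also lost by Efna3 with DESeq2 and by Sema4a with upper-quartile factors, no filter or the replicate block (day 12 against day 6), and by Efnb2 with upper-quartile factors (day 12 against day 0). Calls were gained by Unc5b on both TPM scales (day 12 against day 6) and by Efna1 with DESeq2, its size factors or only the 6 libraries compared (day 12 against day 0). Among the other members, log2(TPM + 1) also turned the signs of Efna4 (0.02), Plxnb1 (0.20), Sema4g (0.13) and Epha1 (0.01) for day 12 against day 6, those of Nrp1 (0.14), Efna5 (0.31), Sema4b (0.20) and Slit1 (0.01) for day 12 against day 0, and that of Sema3e (0.01) for day 6 against day 0. Signs also turned under some alternative, with no call on either side, for Epha2 (day 6 against day 0), Efna2, Ntn3 and Unc5b (day 12 against day 6).

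The replicate letters were not shown to pair libraries: same-letter deviations correlated at r = −0.104 to 0.143. With the replicate block 43, 37 and 41 members were called for day 6 against day 0, day 12 against day 6 and day 12 against day 0, and 10485, 7221 and 10743 genes. Depth limits members under 1 CPM, where 1 count is worth up to 0.0172 CPM.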

Other observations

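Counts and TPM of a gene differ by the transcript length that the authors' estimate used, so their ratio, set relative to the median gene of the library, shows where that length differed between groups. Among 11802 genes with at least 1 TPM in every library, 100 (0.847%) differed by more than 0.3 on the log2 scale between day 6 and day 0, and 4 of 35 such members did. The implied length of Slit2 was longer at day 6 by 0.43 and that of Plxnd1 by 0.32 (log2, day 6 minus day 0), and that of Sema3a was shorter (−0.33) as was that of Plxna3 (−0.31). Values of the libraries did not overlap between these days for any of the 4. Fold changes from counts were not corrected for this length.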
